A study of Mus musculus with 4 samples.

Results

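Genes for the subunits of the 5 complexes of oxidative phosphorylation were described in cultured mouse articular chondrocytes, with the subunits encoded in the nucleus compared with those encoded in the mitochondrial genome. Nuclear members were taken by gene symbol (Nduf, Sdh, Uqcr, Cox4 to Cox8 and Atp5 genes with a subunit number or letter), which gave 82 genes. The tables name mitochondrial genes without the prefix mt- (ND1, COX1, CYTB), so no symbol matched the mitochondrial pattern, and the 13 mitochondrial mRNA genes were found by Ensembl identifier through the annotation. The members were thus 95 of the 55450 genes listed. The rule by name uses no measured value, but it was chosen with earlier results of these data known. The deposited symbol COX2 is the mitochondrial mt-Co2, not the prostaglandin synthase.

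Oxidative phosphorylation is carried out in the inner mitochondrial membrane. Complexes I (NADH dehydrogenase), II (succinate dehydrogenase), III (cytochrome bc1) and IV (cytochrome c oxidase) pass electrons to oxygen, and complex V (ATP synthase) uses the proton gradient built by complexes I, III and IV to make ATP. Most subunits are nuclear and are imported as proteins, while some core subunits of complexes I, III and IV and part of the proton channel of complex V are made inside the organelle from mitochondrial DNA, so each of these complexes needs both genomes. Cartilage has no blood vessels, and chondrocytes in the tissue are known to live at low oxygen and to rely largely on glycolysis, whereas culture in dishes exposes them to more oxygen.

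The 4 libraries came from articular chondrocytes of femoral heads taken from mice aged 3 weeks, freed with 3.5 mg/ml collagenase and grown in DMEM with 10% serum. There was 1 library each of wild type (C57BL/6), of Cart-miR-23clus KO (flox/flox at the miR-23a/b clusters with Col2a1-cre, C57BL/6), of miR-26a KO (miR-26a -/-, C57BL/6) and of miR-26a KO cells given a transfected miR-26a mimic (miR-26a -/-, labelled C57BL6/J). Cre driven by Col2a1 acts in cells of the chondrocyte lineage and is known to be active also in progenitors shared with osteoblasts. The label of the reference library is wild type, whereas the methods of the study define controls as mice with floxed clusters, so its genotype is not certain. A negative control RNA is named in the protocol, and whether the miR-26a KO library received it is not stated in the labels. How many mice contributed to each library is not given in the sources used here. With 1 library per condition, no difference below has a replicate check, no p-value is given, and each 95% interval is an exact Clopper-Pearson interval that covers counting error only.

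Depth was similar across libraries, while markers of other cell types differed. Reads counted on genes with a TPM numbered from 1328042 to 1498579 per library, and the limit that a count of 0 allows was 3 reads, from 2.00 to 2.26 per 1000000 reads. All 10 chondrocyte markers had at least 80 reads, with a summed level from 26940 per 1000000 reads in miR-26a KO to 35060 in wild type. Osteoblast markers held 34190 per 1000000 reads in wild type against 6952 in the Cart-miR-23clus KO library, 15880 in miR-26a KO and 18340 with the mimic, and the 6 of 7 markers with enough reads were all over 2-fold lower in Cart-miR-23clus KO. Of all genes with enough reads, 2.8% were that much lower in the same comparison. Macrophage markers ranged from 279 (miR-26a KO) to 941 per 1000000 reads (Cart-miR-23clus KO). Of 29 cell cycle genes, 19 were over 2 times their wild type level in the Cart-miR-23clus KO library, against 3.07% of all genes with enough reads. For the miR-26a KO library the number was 14, against 2.84% of all such genes. Erythroid markers were at 0 in every library. In such bulk samples, fewer cells of a type and less RNA per cell cannot be told apart. The 8 precursor genes of miR-26a and of the miR-23, miR-24 and miR-27 families had 0 reads in every library, so the deletions could not be checked here.

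The deleted miRNAs differ in the seed (bases 2 to 8, in capitals), which sets the target sites that each can pair with. Mature sequences are from RefSeq (GRCm38.p6), and the sense strand of the mimic named in the labels is the same as miR-26a-5p.
miR-26a-5p: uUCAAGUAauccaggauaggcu
miR-23a-3p: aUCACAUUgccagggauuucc
miR-27a-3p: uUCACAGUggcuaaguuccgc
miR-27b-3p: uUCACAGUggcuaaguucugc
miR-24-3p: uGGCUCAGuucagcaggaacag
miR-27a-3p and miR-27b-3p share a seed. miR-23b-3p, also in the deleted clusters, is named only.

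Few nuclear members carry a match to these seeds. Among the 76 nuclear members with an annotated 3′ UTR and enough reads, the match to miR-26a-5p (TACTTGA) was found in 2, that to miR-23a-3p (AATGTGA) in 5, that to miR-24-3p (CTGAGCC) in 7 and that to the miR-27 seed (ACTGTGA) in 5. As shares of the members these are 2.63%, 6.58%, 9.21% and 6.58%, against 12.5%, 17.4%, 19.4% and 18.2% of the 7339 genes with a UTR and enough reads. The UTRs of the members are short, with a median of 199 bases against 1300 over those genes, so the shares are not comparable at equal length. The genes with a match to miR-26a-5p were Cox5a, a nuclear subunit of complex IV, and Ndufv2, an iron-sulphur subunit of complex I. The sites below are shown because these are the members that the 2 miRNAs could pair with by seed. Each is the site (capitals) within 30 bases of the 3′ UTR from GENCODE on GRCm38.
Cox5a, chromosome 9, miR-26a-5p: actgctattgcTACTTGAttgaaacagttg
Ndufv2, chromosome 17, miR-26a-5p: caaacccaccaTACTTGAactttagctatg
Ndufa3, chromosome 7, miR-23a-3p: tctccaataaaAATGTGAaaactaataacc
Cox6a2, chromosome 7, miR-23a-3p: tatataaggaaAATGTGAtgtttccacctg
Uqcrfs1, chromosome 13, miR-23a-3p: tggcaaacattAATGTGAagtaattgaatt
Ndufs4, chromosome 13, miR-23a-3p: atctcctaataAATGTGAcctttaaactac
Ndufv1, chromosome 19, miR-23a-3p: aagggaagcagAATGTGAccagggcagtga

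The members with a match to miR-26a-5p were not higher in the miR-26a KO library. Cox5a had 331 reads in wild type against 276 in miR-26a KO (TPM ratio 0.916, interval 0.778 to 1.08), and 327 with the mimic. Ndufv2 had 182 reads in wild type, 122 in miR-26a KO (0.736, interval 0.58 to 0.931) and 136 with the mimic. Of the 5 members with a match to miR-23a-3p, Ndufa3 and Cox6a2 stood above wild type in Cart-miR-23clus KO, with TPM ratios of 1.58 (interval 1.37 to 1.83) and 1.93 (1.23 to 3.07). The other 3 had ratios of 1.01 for Ndufv1, 0.906 for Ndufs4 and 0.815 for Uqcrfs1, each with an interval that included 1. Of the 7 members with a match to miR-24-3p, Cox7a2l (0.634), Atp5d (0.763) and Sdhc (0.803) had intervals below 1 in the same comparison and none had an interval above 1. Over all genes tested, 12.9% had an interval above 1 and 13.6% below, and lists of 5 and 7 members are too small to be set apart from these shares. All 5 members with a match to the miR-27 seed had intervals that included 1. Cox6a2 was above wild type in miR-26a KO too (2.57, interval 1.68 to 4.02), whereas Ndufa3 was at 1.02 (0.870 to 1.20) there. A match of 7 letters is a description of the sequence, not evidence of a site in use.

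The promoters of the nuclear members share short words that the rule did not use. RefSeq promoters (GRCm38.p6, from 250 bases before to 50 after the start) were matched by symbol to 66 of the 82 nuclear members, with 71 promoters in all. The core of the NRF1 motif, GCATGCGC, lay on either strand of 14.1% of the members' promoters (10 genes) and of 2.71% of all 32851 promoters. For the other words, the shares were 23.9% against 8.86% for CCGGAAG (GABPA), 9.86% against 1.40% for AAGATGGCG (YY1) and 2.82% against 0.423% for TCAAGGTCA (ESRRA), all on either strand, and none of these words contains another. At least 1 word was in 40.9% of the members' promoters and in 12.5% of all promoters. The members' promoters were richer in G and C, with a median of 57.3% against 52.7%. NRF1 and GABPA are known activators of nuclear respiratory genes, YY1 is a general factor also reported on them, and ESRRA is a nuclear receptor of energy metabolism. The windows below, read 5′ to 3′ along the gene and lying before the start, show members described further on, with the word or its reverse complement in capitals.
Cox6a1, chr5:115349084-115349143, minus strand, NRF1: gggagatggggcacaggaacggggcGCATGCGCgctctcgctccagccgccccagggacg
Atp5k, chr5:108434413-108434472, minus strand, NRF1: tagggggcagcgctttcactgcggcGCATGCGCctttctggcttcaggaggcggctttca
Ndufa8, chr2:36049339-36049398, minus strand, NRF1: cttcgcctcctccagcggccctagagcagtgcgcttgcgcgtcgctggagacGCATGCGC
Uqcrh, chr4:116075071-116075130, minus strand, GABPA: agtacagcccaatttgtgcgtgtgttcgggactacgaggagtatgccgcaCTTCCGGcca
Ndufs3, chr2:90904722-90904781, minus strand, GABPA: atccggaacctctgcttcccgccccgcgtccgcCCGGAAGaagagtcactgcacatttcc
Atp5g3, chr2:73911344-73911403, minus strand, ESRRA: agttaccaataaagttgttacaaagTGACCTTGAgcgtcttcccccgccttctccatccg
These windows describe sequence, and no binding was measured.

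The nuclear subunits together held nearly the same share of reads in every library. They took 25201 reads or 1.68% (interval 1.66 to 1.70) in wild type, 22898 or 1.72% (1.70 to 1.75) in Cart-miR-23clus KO, 22265 or 1.63% (1.61 to 1.66) in miR-26a KO and 24846 or 1.71% (1.69 to 1.74) with the mimic. The ratio of shares was 1.03 (interval 1.01 to 1.04) for Cart-miR-23clus KO against wild type, 0.972 (0.954 to 0.989) for miR-26a KO against wild type and 1.05 (1.03 to 1.07) for the mimic against miR-26a KO. Each interval excludes 1, but with TMM or DESeq2 size factors that of Cart-miR-23clus KO includes 1 (1.014, 0.9958 to 1.032, and 1.018, 0.9995 to 1.036). How far such sums differ between cultures of 1 genotype was not measured.

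The 13 mitochondrial mRNAs took more reads than the 82 nuclear members in every library, and most in Cart-miR-23clus KO. Their reads were 62030 in wild type (4.14%, interval 4.11 to 4.17), 73414 in the Cart-miR-23clus KO library (5.53%, 5.49 to 5.57), 59465 in miR-26a KO (4.36%, 4.33 to 4.398) and 62411 with the mimic (4.31%, 4.27 to 4.34). The Cart-miR-23clus KO share was 1.34 times that of wild type (interval 1.32 to 1.35), while that of miR-26a KO was 1.05 times (1.04 to 1.07). With the mimic the share was 0.987 times that of miR-26a KO (0.976 to 0.998), and without mt-Nd4 0.9942 times (0.9768 to 1.012), an interval that includes 1.

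Set against each other, the genomes gave 2.46 mitochondrial reads per nuclear subunit read in wild type, 3.21 in the Cart-miR-23clus KO library, 2.67 in miR-26a KO and 2.51 with the mimic. In summed TPM, which divides by gene length, these were 1.39, 1.79, 1.50 and 1.41. The libraries tag the 3′ end of mRNAs, so reads need not grow with gene length, and neither scale counts molecules of the genomes exactly. Cart-miR-23clus KO was the highest of the 4 libraries on both scales. Its ratio was 1.30 times that of wild type (interval 1.28 to 1.33), and the ratio in miR-26a KO was 1.09 times that of wild type (1.06 to 1.11). With the mimic the ratio was 0.941 times that of miR-26a KO (0.921 to 0.961). These intervals are normal approximations on the log odds ratio, not exact. Osteoblast, macrophage and cell cycle genes differed between the same libraries by the values above, and their part in the result was not tested.

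**Figure D1:**
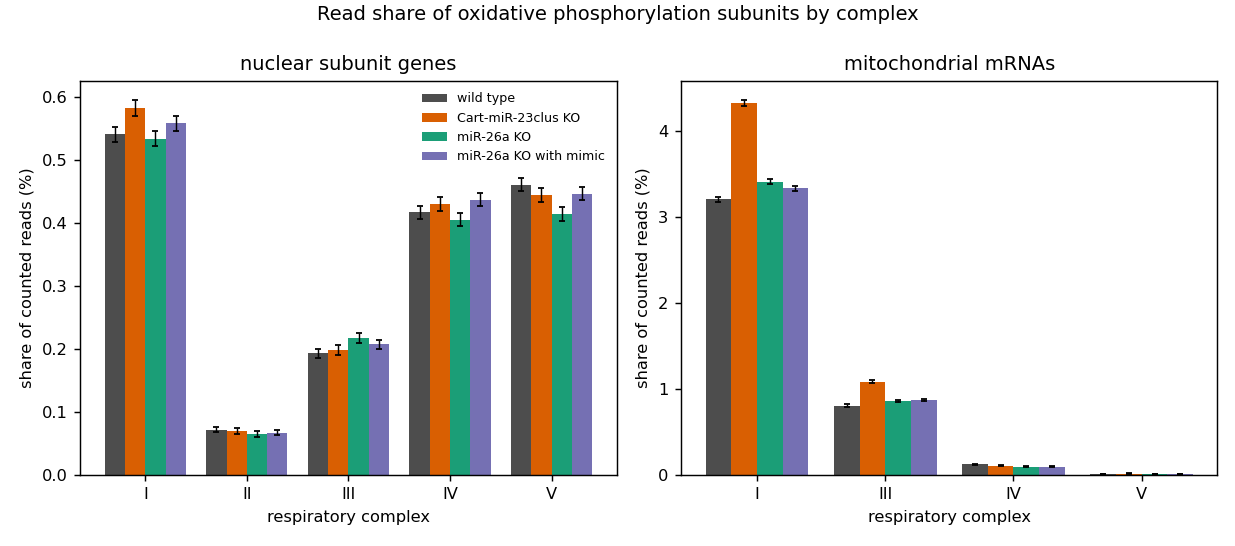
Share of counted reads (%, y axis, from 0) on the members of each complex (x axis) for nuclear genes (left) and mitochondrial mRNAs (right, on a larger scale), with 1 bar per library and exact 95% counting intervals. The right panel shows mitochondrial complex I at 4.33% in Cart-miR-23clus KO against 3.20% to 3.41% in the other 3 libraries. The left panel shows nuclear complex I between 0.534% and 0.582%.

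Among the nuclear members, the complexes differed in which library was highest. Complex I (35 genes) held 0.540% of reads in wild type against 0.582% in Cart-miR-23clus KO, a ratio of 1.08 (interval 1.05 to 1.11), and 0.534% in miR-26a KO (ratio to wild type 0.988, 0.957 to 1.02). Complex V (17 genes) held 0.461% in wild type, 0.444% in the Cart-miR-23clus KO library and 0.414% in miR-26a KO, whose ratio was 0.898 (0.867 to 0.930). With the mimic complex V held 0.446%, 1.08 times its share in miR-26a KO (1.04 to 1.12). Complex III (8 genes) was the one whose share was highest in miR-26a KO, at 0.217% against 0.193% in wild type (ratio 1.12, 1.07 to 1.18). Complex II, the only complex with no mitochondrial subunit, held from 0.0645% to 0.0714%, and complex IV from 0.405% to 0.437%.

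Of the 95 members, 84 had at least 80 reads over the 4 libraries, the minimum for a ratio of TPM to be counted: 76 nuclear and 8 mitochondrial. This filter used the sum over libraries. The 76 nuclear members had a median of 1014 reads summed over libraries, against 250 over all 7558 genes that passed, so counting intervals of members are narrower than those of most genes. TPM ratios are on the authors' scale, on which a Cart-miR-23clus KO ratio to wild type is 0.976 times the ratio of read shares. The corresponding factors to wild type are 0.999 for miR-26a KO and 0.992 for the mimic library.

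Over 2-fold differences were rare among the members. In Cart-miR-23clus KO, none of the 84 had a TPM ratio to wild type above 2 (3.07% of all genes tested did), and 1, Cox4i2, was below 0.5 (2.8% of all genes). In miR-26a KO, 1 member, Cox6a2, was above 2 (2.84% of all genes) and none was below 0.5 (1.53%). With the mimic, no member was above 2 (0.609% of all genes) or below 0.5 (0.556%) of its level in miR-26a KO. The share of nuclear members within 1.25-fold was 77.6%, 80.3% and 94.7% in the 3 comparisons, against 55.1%, 60.5% and 71.1% of all genes, which have fewer reads each.

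Counts of intervals that exclude 1 were within a few percentage points of the background for nuclear members, although members have more reads. For Cart-miR-23clus KO against wild type, 11 of 76 nuclear members had an interval above 1 and 11 below 1 (14.5% each), against 12.9% and 13.6% of all genes. For miR-26a KO against wild type the counts were 9 above (11.8%) and 10 below (13.2%), against 12.7% and 9.05%. For the mimic against miR-26a KO they were 6 above (7.89%) and 3 below (3.95%), against 5.41% and 5.74%. Of the 8 mitochondrial mRNAs, 5 were above and 1 below in Cart-miR-23clus KO, 4 above and 1 below in miR-26a KO, and none above and 2 below with the mimic.

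Medians over the members were small for the nuclear genes. The median log2 TPM ratio of the 76 nuclear members was -0.05 for Cart-miR-23clus KO, -0.08 for miR-26a KO and 0.04 for the mimic against miR-26a KO, against medians over all genes of -0.02, 0.04 and -0.01. Over reads other than mitochondrial ones, the nuclear median for Cart-miR-23clus KO was 0.0066, so its sign depends on the scale. For the 8 mitochondrial mRNAs the medians were 0.43, 0.00 and 0.02. By complex, nuclear complex V had 13 of 17 members lower in Cart-miR-23clus KO (median -0.15) and 15 of 17 lower in miR-26a KO (median -0.19), and 12 of 17 higher with the mimic than in miR-26a KO (median 0.10). Of these, 4 had an interval below 1 in each of the first 2 comparisons and 3 had one above 1 in the last. Such intervals were found for 13.6%, 9.05% and 5.41% of all genes tested, which have fewer reads each. Over all genes tested, 47.8%, 53.9% and 49.15% were higher in the 3 comparisons. The first 2 comparisons share the wild type library, and the last 2 share the miR-26a KO library.

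**Figure D2:**
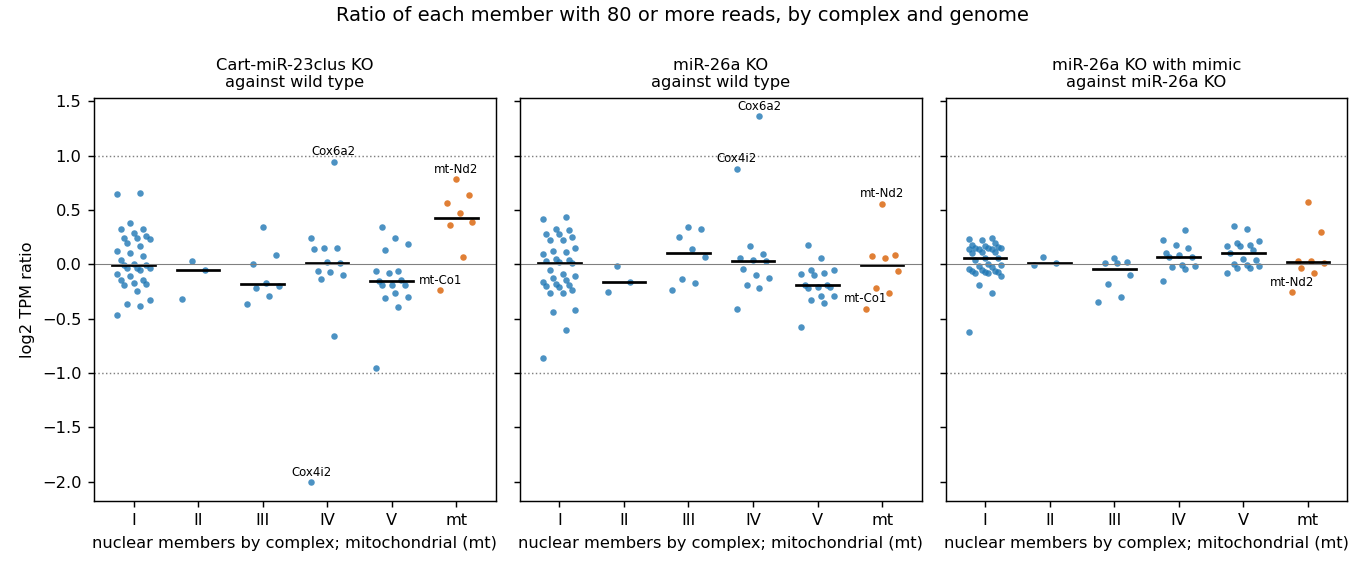
Log2 TPM ratio (y axis) of each of the 84 members with 80 or more reads, in 3 comparisons (panels), with nuclear members by complex in blue and mitochondrial mRNAs in orange. Black lines are medians and dotted lines mark 2-fold. Cox4i2 at -2.01 in the left panel and Cox6a2 at 1.36 in the middle panel are the points past 2-fold.

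The mitochondrial mRNAs differed widely in level. mt-Nd4, a proton-pumping core subunit of complex I, had 37342 reads in wild type, 43635 in the Cart-miR-23clus KO library, 35314 in miR-26a KO and 36879 with the mimic, which was from 59.1% to 60.2% of all mitochondrial mRNA reads. mt-Cytb, the only mitochondrial subunit of complex III, had 12063, 14360, 11677 and 12633 reads in the same order, and mt-Nd1, a core subunit of complex I, had 6860, 8630, 6608 and 7215. These 3 mRNAs were highest in Cart-miR-23clus KO, with TPM ratios to wild type of 1.29 (1.27 to 1.30), 1.31 (1.28 to 1.34) and 1.39 (1.34 to 1.43). In miR-26a KO their ratios to wild type lay between 1.04 and 1.06.

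The mitochondrial mRNAs did not all follow this pattern. mt-Nd2, another membrane subunit of complex I, had 2529 reads in wild type, 3959 in the Cart-miR-23clus KO library, 3386 in miR-26a KO and 3029 with the mimic. Its TPM ratio to wild type was 1.72 (1.64 to 1.81) in the Cart-miR-23clus KO library and 1.47 (1.40 to 1.55) in miR-26a KO, and the ratio of the mimic library to miR-26a KO was 0.836 (0.796 to 0.878). Wild type thus had the lowest mt-Nd2 of the 4 libraries, and the interval of its ratio in Cart-miR-23clus KO lies above those of mt-Nd1, mt-Nd4 and mt-Cytb. mt-Nd5, the other large subunit of complex I, had 1272, 1210, 1110 and 1127 reads, and its ratio to wild type was 1.05 (0.967 to 1.13) in the Cart-miR-23clus KO library and 0.958 (0.883 to 1.04) in miR-26a KO. mt-Co1, the catalytic subunit of complex IV, was highest in wild type, with 1773 reads against 1366, 1217 and 1331, and ratios to wild type of 0.848 (0.790 to 0.911) and 0.754 (0.7002 to 0.811).

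The remaining mitochondrial mRNAs had few reads. mt-Atp6, a channel subunit of complex V, had 138 reads in wild type, 185 in the Cart-miR-23clus KO library (ratio 1.48, 1.18 to 1.85), 108 in miR-26a KO (0.859, 0.662 to 1.11) and 142 with the mimic (1.23 against miR-26a KO, 0.9498 to 1.59). mt-Co2, the subunit of complex IV that takes electrons from cytochrome c, had 29, 41, 22 and 35 reads, with intervals that included 1 in all 3 comparisons for the reads assigned to it, and mt-Co3, another core subunit of complex IV, had 8, 4, 4 and 5. mt-Nd3 had 8, 12, 5 and 7 reads. mt-Nd6, the one mRNA of the 13 that lies on the opposite strand, had 8, 11, 13 and 8. mt-Nd4l had 1 read in the Cart-miR-23clus KO library and 1 in miR-26a KO, and mt-Atp8 had 0 in all 4 libraries. In the annotation mt-Atp8 overlaps the start of mt-Atp6 and mt-Nd4l overlaps the start of mt-Nd4, and each pair is known to be carried on 1 mRNA, so a read from its 3′ end falls on the second gene of the pair. Differences of the mRNAs with under 80 reads were not detectable at this depth.

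Several of these low counts are uncertain for a further reason of sequence. Of all 75-base windows (the read length) in the last 500 bases, mt-Co1, mt-Co2, mt-Co3, mt-Atp6, mt-Nd3 and mt-Nd4l shared from 95.1% to 99.8% with other annotated genes, while the other 7 mitochondrial mRNAs shared at most 12.9%. The matching genes of the 6 are pseudogenes, and those printed here lie side by side on chromosome 1, as a copy of mitochondrial DNA in the nuclear genome. The stretches below set genes beside their copies, with differences in capitals. mt-Co2 is the same as Gm28661 from its first base onward, so a read there cannot be assigned. The stretch of mt-Co1 holds all 6 of its differences from Gm29216, and that of mt-Nd3 its 1 difference from Gm28438. A read over these differences can be told apart, and one elsewhere in the aligned part cannot.
mt-Co2, bases 1 to 60, chrM:7013-7696: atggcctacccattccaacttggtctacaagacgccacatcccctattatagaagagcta
Gm28661, chr1:24614885-24615565: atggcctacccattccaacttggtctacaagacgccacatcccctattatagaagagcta
mt-Co1, bases 1054 to 1113, chrM:5328-6872: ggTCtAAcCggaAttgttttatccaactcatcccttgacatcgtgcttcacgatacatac
Gm29216, chr1:24615706-24616197: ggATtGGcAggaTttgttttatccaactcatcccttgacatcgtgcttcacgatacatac
mt-Nd3, bases 1 to 60, chrM:9459-9806: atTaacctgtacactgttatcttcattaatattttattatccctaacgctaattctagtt
Gm28438, chr1:24612775-24613119: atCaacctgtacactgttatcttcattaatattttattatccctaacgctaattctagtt
Over the aligned part, mt-Co2 and Gm28661 had 0 differences in 681 bases, mt-Co1 and Gm29216 had 6 in 492, and mt-Nd3 and Gm28438 had 1 in 345. mt-Co3, mt-Atp6 and mt-Nd4l had 0 differences from Gm28437, Gm10925 and Gm10222 over 783, 678 and 294 bases. Coordinates and sequences are GENCODE on GRCm38, and the pseudogenes are on the minus strand.

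How the counting treated reads with more than 1 match is not given in the sources used here. In the 3 libraries with a summary, from 13.02% to 15.4% of reads aligned more than once. The 10 pseudogenes that match mitochondrial mRNAs in their last 500 bases held 272 reads in wild type, 309 in the Cart-miR-23clus KO library, 304 in miR-26a KO and 195 with the mimic. Genes that match mt-Nd4 only further upstream are not among these 10, and their reads were not summed. Without the 6 mRNAs that share 50% or more of these windows, the ratio of shares between Cart-miR-23clus KO and wild type was 1.35 (1.33 to 1.36) against 1.34 with all 13, and the 7 that remain include mt-Nd2 and mt-Nd5, which match a listed pseudogene over 12.9% and 2.58% of these windows. Counted over its whole transcript, mt-Nd4 shares 61.5% of windows, and without mt-Nd4 the ratio of the mitochondrial share was 1.36 (1.34 to 1.38). The 6 mRNAs left out had a summed share of 0.131% in wild type, 0.121% in the Cart-miR-23clus KO library (ratio 0.928, 0.868 to 0.992) and 0.0996% in miR-26a KO (ratio 0.763, 0.711 to 0.818). Most of their reads are on mt-Co1, and mt-Atp6 and mt-Co2 had ratios above 1 in Cart-miR-23clus KO (1.48 and 1.56, the latter with an interval of 0.944 to 2.60). With the mimic mt-Co2 was at 1.49 (0.848 to 2.66) of miR-26a KO. Both directions of mt-Co2 turn when reads on its copy Gm28661 are added, with summed reads of 163 in wild type, 71 in the Cart-miR-23clus KO library, 156 in miR-26a KO and 59 with the mimic.

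**Figure D3:**
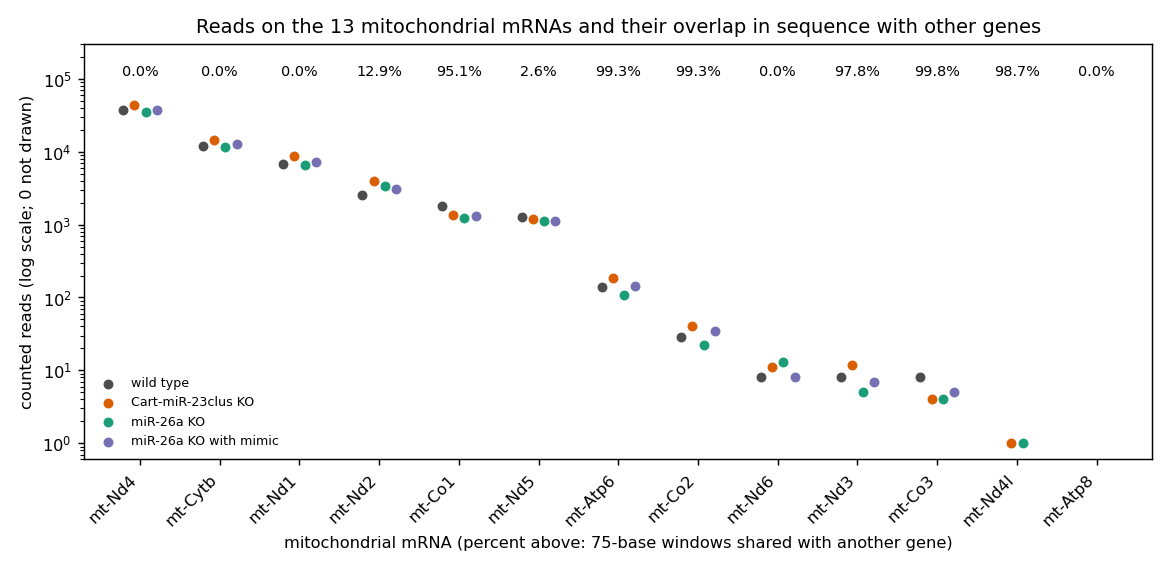
Counted reads (y axis, log scale) on each of the 13 mitochondrial mRNAs (x axis, most reads first) in each library (colours), with the percent of 75-base windows shared with another gene printed above each. The mRNAs with over 1000 reads in every library share at most 12.9% of windows, except mt-Co1 at 95.1%.

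The summed share of the mitochondrial ribosomal RNAs had a smaller ratio in Cart-miR-23clus KO than that of the mRNAs. mt-Rnr2 and mt-Rnr1, the large and small ribosomal RNA, together held 0.399% of reads in wild type, 0.476% in the Cart-miR-23clus KO library (ratio 1.19, 1.15 to 1.24), 0.402% in miR-26a KO (1.01, 0.970 to 1.04) and 0.352% with the mimic. mt-Rnr1 had a TPM ratio to wild type of 1.43 (1.33 to 1.53) in Cart-miR-23clus KO, with 1953 reads against 1509, while mt-Rnr2 had 1.08 (1.03 to 1.12), with 4365 against 4472. The 22 mitochondrial tRNA genes held from 24 to 48 reads in a library, which is too few to compare.

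In nuclear complex I, the 3 members with the most reads differed by small ratios. Ndufa2 had 707 reads in wild type, 690 in the Cart-miR-23clus KO library, 716 in miR-26a KO and 822 with the mimic, and Ndufa7 had 400, 436, 377 and 450. Both are accessory subunits, and Ndufa2 was at 1.11 (1.00 to 1.24) of wild type in miR-26a KO and Ndufa7 at 1.20 (1.05 to 1.38) in Cart-miR-23clus KO. Ndufv3, an accessory subunit of the NADH-binding arm, had 499, 443, 378 and 415 reads, with a TPM ratio to wild type of 0.832 (0.726 to 0.953) in miR-26a KO. Among the core subunits, Ndufs1, Ndufs7, Ndufs8 and Ndufv1 had intervals that included 1 in all 3 comparisons.

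Other members of complex I lay further from 1. Ndufv2 had 182 reads in wild type against 120 in Cart-miR-23clus KO (0.726, 0.572 to 0.919), close to its 122 reads in miR-26a KO. Ndufa3 had 325 reads in wild type, 467 in the Cart-miR-23clus KO library, 302 in miR-26a KO and 381 with the mimic. Ndufa4, which goes by its symbol with complex I although its protein is now placed in complex IV, had 144, 205, 156 and 185 reads, with a ratio of 1.57 (1.26 to 1.95) in Cart-miR-23clus KO. Ndufa3 and Ndufa4 were thus highest in Cart-miR-23clus KO. Ndufa8 was lowest there, with 200 reads against 287 in wild type (0.767, 0.637 to 0.922), and 233 and 286 in the other libraries. Ndufa10 and Ndufa12 were higher in miR-26a KO than wild type, with 187 against 154 reads (1.33, 1.07 to 1.66) and 170 against 138 (1.35, 1.07 to 1.71), and Ndufa10 was also at 1.30 (1.04 to 1.62) in Cart-miR-23clus KO.

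Lower in miR-26a KO was Ndufs4, an accessory subunit needed for a stable complex I, with 101 reads against 169 in wild type (0.656, 0.508 to 0.845), 139 in Cart-miR-23clus KO and 122 with the mimic. Ndufs5 had 81, 62, 55 and 56 reads, and its ratio to wild type in miR-26a KO was 0.746 (0.520 to 1.06). Ndufs3, a core subunit, had 36, 26, 18 and 19 reads (0.549 in miR-26a KO, 0.294 to 0.993) and shares 45.3% of its windows with another gene, Gm12251. Ndufb10, a membrane-arm subunit, had the lowest ratio of the 84 members with the mimic, at 122 reads against 175 in miR-26a KO (0.651, 0.513 to 0.825), with 153 in wild type against 126 in Cart-miR-23clus KO. Ndufs7, with 74 against 83 reads, had a ratio of 0.833 (0.601 to 1.15).

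Complex II, which links the citric acid cycle to the chain, showed no member past 2-fold. Sdhb, its iron-sulphur subunit, had 489, 454, 397 and 445 reads in the 4 libraries in the same order, and Sdha, the flavoprotein, had 333, 292, 300 and 319. Sdhc, a membrane anchor, had 222, 162, 169 and 182, with a ratio to wild type of 0.803 (0.652 to 0.988) in Cart-miR-23clus KO. Sdhd, the other anchor, had 26, 20, 13 and 20 reads and fell under the minimum.

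In complex III the 2 nuclear members with the most reads were highest in the miR-26a libraries. Uqcrh, the hinge subunit, had 904 reads in wild type, 821 in the Cart-miR-23clus KO library, 1031 in miR-26a KO and 972 with the mimic. Its ratio to wild type was 1.00 (0.909 to 1.10) in the Cart-miR-23clus KO library and 1.253 (1.14 to 1.37) in miR-26a KO, and 0.881 (0.806 to 0.962) with the mimic against miR-26a KO. Uqcrq, an accessory subunit, had 768, 739, 834 and 900 reads and a ratio to wild type of 1.19 (1.08 to 1.32) in miR-26a KO. Uqcr10, another small subunit, had 364, 419, 348 and 378, with 1.27 (1.10 to 1.46) in Cart-miR-23clus KO. The core proteins Uqcrc1 and Uqcrc2 had 59, 46, 68 and 59 reads and 181, 143, 182 and 153, and with the mimic they were at 0.811 (0.562 to 1.17) and 0.785 (0.629 to 0.979) of miR-26a KO. No Uqcrhl gene was among the members.

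Complex IV held both of the members past 2-fold, and both are the rarer isoform of a pair. Cox4i2, the form of subunit 4 known from lung and from cells at low oxygen, had 31 reads in wild type, 7 in the Cart-miR-23clus KO library, 52 in miR-26a KO and 50 with the mimic. In TPM these were 40.8, 10.1, 75.2 and 67.5, so Cart-miR-23clus KO was the lowest library and the miR-26a libraries the highest. Its ratio to wild type was 0.249 (0.0924 to 0.575) in the Cart-miR-23clus KO library and 1.84 (1.16 to 2.97) in miR-26a KO. The common isoform Cox4i1 had 709, 600, 659 and 757 reads (849 to 998 TPM), with intervals that included 1 in all 3 comparisons. Cox4i2 thus made up 4.19% of the reads of the pair in wild type (interval 2.86 to 5.89), 1.15% in the Cart-miR-23clus KO library (0.465 to 2.36), 7.31% in miR-26a KO (5.51 to 9.48) and 6.20% with the mimic (4.63 to 8.09), not divided by length.

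Cox6a2, the form of subunit 6a known from heart and skeletal muscle, was lowest in wild type. It had 32 reads there, 56 in the Cart-miR-23clus KO library, 75 in miR-26a KO and 80 with the mimic (45.04, 86.8, 116 and 116 TPM). Its ratio to wild type was 1.93 (1.23 to 3.07) in the Cart-miR-23clus KO library and 2.57 (1.68 to 4.02) in miR-26a KO, and with the mimic it was 0.997 times its level in miR-26a KO (0.718 to 1.38). Cox6a1, the common form, had 1018, 841, 901 and 1023 reads (1552 to 1760 TPM), with a ratio of 0.910 (0.829 to 0.998) in Cart-miR-23clus KO. The share of Cox6a2 in the reads of the pair was 3.05% in wild type (2.09 to 4.28) against 6.24% (4.75 to 8.03), 7.68% (6.09 to 9.54) and 7.25% (5.79 to 8.95) in the others. The 10 skeletal muscle markers held only 12, 16, 10 and 6 reads in all, with 4 of them at 0 in every library, and their part in the level of Cox6a2 was not tested.

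**Figure D4:**
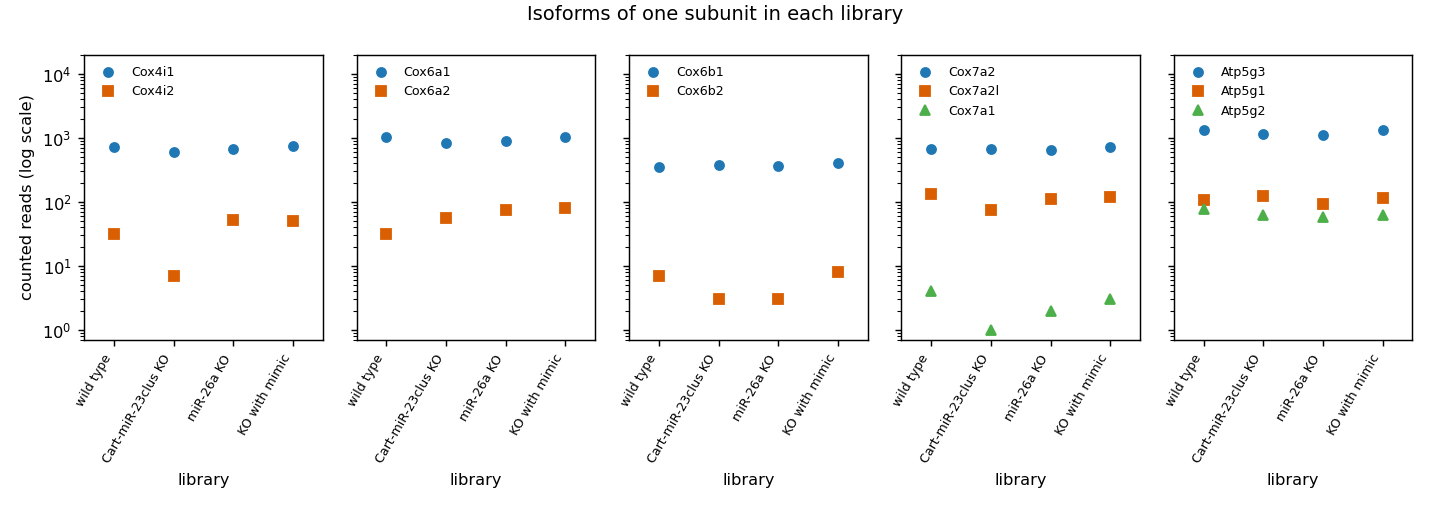
Counted reads (y axis, log scale) of the isoforms of 5 subunits (panels) in each library (x axis). Cox4i2 drops to 7 reads in Cart-miR-23clus KO against 31 to 52 elsewhere, and Cox6a2 has 32 reads in wild type against 56 to 80, while Cox4i1 has 600 to 757 and Cox6a1 841 to 1023.

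The other tissue-specific isoforms of complex IV were at or near the limit of detection. Cox7a1, the muscle form of subunit 7a, had 4, 1, 2 and 3 reads, against 672, 679, 638 and 718 for the common form Cox7a2. Cox6b2 had 7, 3, 3 and 8 reads, against 349, 375, 358 and 402 for Cox6b1. Cox8b had 1 read in Cart-miR-23clus KO and 0 elsewhere, whereas Cox8a had 489, 493, 476 and 576. Cox8c and Cox7b2, known from testis, had 0 reads in every library, which allows up to 2.26 per 1000000 reads, and Cox7b had 307, 267, 245 and 254. Cox7a2l, a relative of subunit 7a that joins complexes III and IV into supercomplexes, had 132 reads in wild type and was lowest in Cart-miR-23clus KO with 76 (ratio 0.634, 0.472 to 0.847), against 112 and 119 in the miR-26a libraries.

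Cox6c and Cox7c, with Cox6a1, had the most reads among nuclear members of complex IV. Cox6c had 837, 841, 784 and 823 reads. Cox7c had 1004, 867, 687 and 857, and was at 0.751 (0.681 to 0.829) of wild type in miR-26a KO and at 1.17 (1.05 to 1.29) of miR-26a KO with the mimic, but shares 37.3% of its windows with the gene models Gm10012 and Gm12338. Cox5b, which binds zinc, had 321, 295, 251 and 335 reads, and was at 1.247 (1.06 to 1.47) of miR-26a KO with the mimic. In TPM, Uqcrh, Cox7c, Atp5g3, Cox6a1 and Atp5k were the 5 highest nuclear members in all 4 libraries, from 1329 to 2696 TPM.

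In complex V, most subunits were somewhat lower in miR-26a KO than wild type. Atp5b, the catalytic beta subunit, had 649 reads in wild type, 530 in the Cart-miR-23clus KO library, 472 in miR-26a KO and 568 with the mimic, and Atp5a1, the alpha subunit, had 645, 476, 508 and 538. Their ratios to wild type in miR-26a KO were 0.799 (0.708 to 0.901) and 0.865 (0.769 to 0.973), and Atp5a1 was at 0.813 (0.720 to 0.916) in Cart-miR-23clus KO. Atp5k, the small subunit e with as many reads in all as Atp5a1, had 548, 568, 469 and 582. Atp5md, a small subunit of the ATP synthase dimer known as DAPIT, had 473, 388, 289 and 318 reads, with 0.671 (0.578 to 0.778) in miR-26a KO. Atp5d, the delta subunit of the central stalk, had 280, 194, 223 and 300 reads, with 0.763 (0.632 to 0.919) in Cart-miR-23clus KO and 1.26 (1.05 to 1.50) with the mimic against miR-26a KO.

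Atp5l, subunit g, had 62 reads in wild type, 29 in the Cart-miR-23clus KO library, 44 in miR-26a KO and 60 with the mimic. Its ratio to wild type in Cart-miR-23clus KO was 0.515 (0.319 to 0.813), just short of 2-fold, and it was 1.27 (0.849 to 1.92) with the mimic against miR-26a KO. It shares 69.95% of its windows with 9 other annotated genes, all named as pseudogenes or gene models, so its count is uncertain, as is that of Atp5h at 52.1%. The c subunit of the rotor is encoded by 3 genes with different import signals and the same mature protein. Atp5g3 supplied most of their reads, with 1317, 1148, 1118 and 1312, against 106, 122, 93 and 114 for Atp5g1 and 78, 62, 58 and 62 for Atp5g2. Atp5g1 made up 7.06% of the reads of the 3 genes in wild type (5.82 to 8.48) and 9.16% in Cart-miR-23clus KO (7.66 to 10.8), and these intervals overlap.

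Subunits and carriers that the naming rule leaves out were read beside the members. Ndufa4l2, a relative of Ndufa4 known to be induced at low oxygen, had 217 reads in wild type, 80 in the Cart-miR-23clus KO library, 265 in miR-26a KO and 251 with the mimic. Its ratio to wild type was 0.406 (0.310 to 0.527) in the Cart-miR-23clus KO library and 1.34 (1.12 to 1.61) in miR-26a KO, the same order of libraries as Cox4i2. Atpif1, the inhibitor of ATP synthase, had 513, 396, 403 and 422 reads, with 0.850 (0.744 to 0.971) and 0.863 (0.755 to 0.985) against wild type. Cyc1 had 78, 54, 50 and 70, Ndufab1 had 158, 131, 138 and 131, and Cycs, cytochrome c, had 31, 37, 28 and 19, with intervals that included 1 in each comparison.

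Other genes that serve the same organelle were read against the shares of all genes past 2-fold, which were 3.07% above 2 and 2.8% below 0.5 in Cart-miR-23clus KO and 2.84% and 1.53% in miR-26a KO, so few are to be found in lists of this size. Of 29 assembly factors with enough reads, none was past 2-fold in Cart-miR-23clus KO (median log2 ratio -0.01) and 1, Ecsit, was in miR-26a KO (43 against 19 reads, ratio 0.485, 0.267 to 0.851). Of 19 genes for upkeep of mitochondrial DNA and RNA, Fastkd2 was above 2 in Cart-miR-23clus KO (35 against 19 reads, 2.03, 1.13 to 3.75) and Ptcd1 in miR-26a KO (32 against 15, 2.34, 1.23 to 4.66). Lrpprc, which keeps mitochondrial mRNAs stable, had 259, 352, 344 and 302 reads and was at 1.50 (1.27 to 1.76) and 1.46 (1.24 to 1.72) of wild type in the 2 knockouts, whereas Slirp, its partner, had 232, 179, 158 and 162 and was at 0.850 (0.695 to 1.04) and 0.748 (0.607 to 0.920). No citric acid cycle gene (18 tested) and no import or carrier gene (26 tested) was past 2-fold in any comparison, and of 68 mitochondrial ribosomal proteins 1 was, Mrpl15 in miR-26a KO (0.494, 0.331 to 0.725).

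Among 13 regulators with enough reads, Pparg was above 2 in Cart-miR-23clus KO (115 against 38 reads, 3.33, 2.29 to 4.94). The fat cell gene Fabp4 had 223 reads there against 57, with the adipocyte markers Adipoq at 9 and 8 reads and 3 of 6 markers at 0 in every library. Hif1a, the factor of the low oxygen response, had 311, 229, 252 and 262 reads, with a ratio to wild type of 0.811 (0.681 to 0.965) in Cart-miR-23clus KO. Of 19 glycolysis genes, Aldoc (67 against 16 reads) and Slc16a3, a lactate exporter (48 against 14), were below 0.5 in Cart-miR-23clus KO, with ratios of 0.263 (0.142 to 0.459) and 0.321 (0.164 to 0.592). Aldoc was also at 16 reads in miR-26a KO (0.262, 0.142 to 0.458), and Pgam1 had 74 reads with the mimic against 8 in miR-26a KO (8.64, 4.17 to 20.8). The median log2 ratio of the glycolysis genes was 0.06 in the Cart-miR-23clus KO library, -0.03 in miR-26a KO and 0.19 for the mimic against miR-26a KO. Cytoplasmic ribosomal proteins, another large set of short mRNAs, had a median of -0.22 in the Cart-miR-23clus KO library and -0.21 in miR-26a KO, with 66 and 71 of 74 below wild type, where the nuclear members had 45 and 44 of 76.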

How the data were processed

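RNA-seq was analysed from 4 libraries, 1 per condition, made with a kit that reads the 3′ ends of mRNAs in single reads of 75 bases. The deposited values were TPM for all 4 libraries and, for 3 of them, deposited estimated counts per gene, which were whole numbers. The genome builds mm10 and GRCm38.p6 are named in the submitters' processing notes. Reads of the mimic library were recovered from the steps of its TPM: all 14429 values tested were whole within 0.01 read, and 588 genes gave none. Expression was compared as ratios of TPM without a pseudocount, and as shares of counted reads, with exact Clopper-Pearson 95% intervals. Intervals of the mitochondrial to nuclear read ratio used a normal approximation on the log odds ratio. A gene needed 80 reads summed over the 4 libraries (7558 genes). Single libraries allow no test, and a 2-fold difference was the threshold. The members and gene lists were chosen with earlier results of these data known.

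Members named with full values were the mitochondrial mRNAs, the 3 nuclear members of each complex with the most reads, the 5 highest and 5 lowest ratios per comparison with 20 reads in both libraries, and isoform groups. Other members that these conditions do not select, such as Ndufs3, Sdhd and Cox5a, were also given values. From other lists, the 3 genes with the most reads and those past 2-fold could be named. Cyc1 and Cycs, which meet neither condition, were named as well. Shared sequence was counted as identical 75-base windows in the last 500 bases of a transcript. Alternatives were TMM (edgeR 4.0.16) and DESeq2 1.42.0 size factors, other filters, a pseudocount of 0.5, a 1.5-fold threshold and sums without the member with the most reads. Sums without members with shared sequence, or with the 10 listed nuclear copies added, were chosen after seeing the data. Scripts were tested on simulated data. Python 3.11.15, pandas 2.3.3, scipy 1.17.1, matplotlib 3.10.9 and R 4.3.3 were used.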

Additional observations from a re-analysis of the deposited data

Results flagged for a closer look

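Reads on pseudogenes that copy mitochondrial mRNAs are outside the comparisons of subunit genes, and some exceeded the wild type library. Gm29216, a copy of mt-Co1, had 144 reads in Cart-miR-23clus KO, against 16 in wild type, 29 in miR-26a KO and 15 with the mimic (TPM ratio to wild type 9.91, interval 5.90 to 17.8). Gm28437, a copy of mt-Co3, had 51 reads in miR-26a KO and 39 with the mimic, against 18 in wild type, with 23 in Cart-miR-23clus KO (ratio of miR-26a KO to wild type 3.11, 1.79 to 5.66). Reads on each copy and on its mitochondrial gene cannot be told apart over the shared bases. Added together, mt-Co1 and Gm29216 had 1789 reads in wild type against 1510 in Cart-miR-23clus KO, whereas mt-Co3 and Gm28437 together had 26 in wild type, 55 in miR-26a KO and 44 with the mimic.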

How the results depend on the processing

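Of 138 alternative values over 21 results, 122 stayed close to the reported value and 16 moved. Counted over reads other than mitochondrial ones, 2 median log2 ratios near 0 changed sign: that of nuclear members in Cart-miR-23clus KO from -0.05 to 0.0066, and that of mitochondrial mRNAs in miR-26a KO from -0.0034 to 0.0018. The nuclear share of Cart-miR-23clus KO relative to wild type was 1.014 (0.9958 to 1.032) with TMM and 1.018 (0.9995 to 1.036) with DESeq2 size factors, intervals that include 1. Over reads other than mitochondrial ones it was 1.041 (1.023 to 1.06). Without mt-Nd4, the mitochondrial share with the mimic was 0.9942 (0.9768 to 1.012) of that in miR-26a KO. The mitochondrial share of Cart-miR-23clus KO relative to wild type was 1.321 with TMM and 1.361 without mt-Nd4. For miR-26a KO relative to wild type, the nuclear share was 0.9461 with TMM and 0.9495 with DESeq2 size factors, and the mitochondrial share was 1.027 with TMM, 1.03 with DESeq2 size factors and 1.076 without mt-Nd4. With a 1.5-fold threshold, 5 members were higher and 3 lower in Cart-miR-23clus KO, 2 higher and 2 lower in miR-26a KO, and 1 lower with the mimic. With a TPM above 0 in both libraries as the only filter, 3 were lower in Cart-miR-23clus KO, 1 lower in miR-26a KO and 1 higher with the mimic. The shares of all genes under these alternatives are not given here, so whether such counts are many or few cannot be read from them. With at least 20 reads in each library, 0 were lower in Cart-miR-23clus KO, since Cox4i2 has 7 reads there. The cause of the shifts in share was not tested. The spread between cultures was not measured, so intervals cover counting error only, and low counts limit Cox4i2, Cox6a2 and the 7 mitochondrial mRNAs with the fewest reads. No paired analysis was possible because the libraries are single and carry no replicate numbers.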

Other observations

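Gm28661, a second copy of mitochondrial sequence that matches mt-Co2, had 134 reads in wild type, the same number in miR-26a KO, against 30 in Cart-miR-23clus KO and 24 with the mimic. Its TPM ratio was 0.247 (0.160 to 0.368) for Cart-miR-23clus KO against wild type and 0.167 (0.104 to 0.260) for the mimic against miR-26a KO, while mt-Co2 itself had from 22 to 41 reads. The copy is identical to mt-Co2 over 681 bases, and their summed reads were 163 in wild type, 71 in the Cart-miR-23clus KO library, 156 in miR-26a KO and 59 with the mimic.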
